A study of Mus musculus with 8 samples.

Results

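Heat shock proteins of the Hsp90, Hsp70, small Hsp and chaperonin families, together with the DnaJ proteins that work with Hsp70, were followed as transcripts in the medial prefrontal cortex of mice. Members were the protein-coding genes whose GENCODE M21 symbol begins with Hspa, Hspb, Hspd, Hspe or Hsph and a number, with Hsp90, or with Dnaja, Dnajb or Dnajc and a number, and that reached at least 10 counts in at least 4 of the 8 columns of the raw count table. The symbol fitted 72 protein-coding genes and 66 of them reached the counts, out of 54446 genes in the table. They were 25 Dnajc, 11 Dnajb, 4 Dnaja, 14 Hsp70 (with the Hsp110 genes Hspa4, Hspa4l and Hsph1), 7 small Hsp, 3 Hsp90 and 2 chaperonin genes. By the site of the protein, from general knowledge, 42 were cytosolic or nuclear, 12 belonged to the endoplasmic reticulum, 8 were mitochondrial and 4 were not assigned.

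Hsp70 proteins bind exposed hydrophobic stretches of unfolded clients in a cycle driven by ATP, and DnaJ proteins deliver the clients and start ATP hydrolysis through their J domain. Hsp90 acts later on partly folded clients such as kinases and steroid receptors, the mitochondrial Hsp60 and Hsp10 chaperonin encloses imported proteins, and small heat shock proteins hold damaged ones. Each compartment has its own set: Hspa5 (BiP) and Hsp90b1 (Grp94) serve the endoplasmic reticulum, and Hspa9 (mortalin) and Hspd1 (Hsp60) the mitochondrial matrix. In neurons, Hspa8 with Dnajc6 (auxilin) strips clathrin from endocytosed vesicles, and Dnajc5 (cysteine string protein) protects the release machinery on synaptic vesicles.

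The study compared 4 libraries labelled Ino80e overexpression with 4 libraries from mice labelled wild type (the labels spell it "wile-type"), all of poly(A)-selected RNA from medial prefrontal cortex. Adeno-associated virus was injected stereotaxically to alter the risk gene, and the Ino80e protein belongs to INO80, an ATP-driven chromatin remodeller. The sources used here do not give strain, sex, age, the viral promoter, the time after injection, or whether wild-type mice received a control virus. The labels do not tie a library to 1 animal either, and the p-values below reflect only how these libraries vary, technical variation included. Library totals ran from 44762378 to 60490153 counts. Ino80e stood at 74.1, 23.4, 23.3 and 45.04 CPM (counts relative to library size, scaled as described for the test) in overexpression replicates 1 to 4, against 19.5 to 25.5 CPM in wild type. Replicates 2 and 3 thus lay inside the wild-type range, against their label. The counts of members and of chaperone network genes at the test's threshold are also given without them. Markers of excitatory cortical neurons summed to 10002 to 11193 CPM under the overexpression label and 9584 to 11108 CPM under the wild-type label. Microglial markers summed to 425 to 540 CPM against 406 to 465 CPM, with 4 of 8 higher at an unadjusted p under 0.05 (5.24% of all genes; 0 of 8 with the GC offset described below), striatal neuron markers (6 genes, none at that threshold) to 129.5 to 292 CPM against 130 to 254 CPM, and choroid plexus markers (1 of 5 lower at that threshold) to 12.7 to 107 CPM against 8.46 to 1106 CPM, the last in wild-type replicate 4. Oligodendrocyte markers summed to 4202 CPM in overexpression replicate 1 and to 5049 to 6100 CPM in the other 7 libraries. Single markers at that threshold were Gfap of astrocytes (log2 0.48, SE 0.16), Rgs5 of mural cells (log2 -0.17, SE 0.052, without overlap) and Neurod6 of excitatory neurons (log2 -0.21, SE 0.069). With the offset they stood at 0.40, -0.084 and -0.13. In the main fit 5.43% of all genes were lower at that threshold. Without overexpression replicates 2 and 3, 2 of 8 microglial markers were higher (3.64% of all genes) and 1 lower (3.44% of all genes). No choroid plexus marker was at the threshold in that fit. The part of these other cells in the values below was not tested. In bulk tissue, fewer cells of a type and less RNA per cell cannot be told apart.

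Promoter sequences are shown first because 2 of the known switches of these genes can be read in them. The heat shock element bound by Hsf1 is built of alternating GAA and TTC units, and the endoplasmic reticulum stress element is a CCAAT box and a CCACG box 9 bases apart, bound by NF-Y and by ATF6 or XBP1. RefSeq promoters of the GRCm38.p6 build were found for 55 of the 66 members, and the 250 bases before each start site were searched on both strands. The complete stress element (CCAAT, 9 bases of any kind, CCACG) occurred in 3 members, Hspa5, Hsp90b1 and Dnajc3, all of the endoplasmic reticulum, and in 0.13% of all 27025 genes with a promoter. Its copies are printed 5′ to 3′ on the gene's strand, with the element in capitals. Hsp90b1 holds one copy in each orientation.
Hspa5, chr2:34772015-34772054, plus strand: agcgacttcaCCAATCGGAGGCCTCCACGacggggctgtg
Hsp90b1, chr10:86705625-86705664, minus strand: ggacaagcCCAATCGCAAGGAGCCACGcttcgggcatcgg
Hsp90b1, chr10:86705522-86705561, minus strand: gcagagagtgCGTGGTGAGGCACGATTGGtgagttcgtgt
Dnajc3, chr14:118937817-118937856, plus strand: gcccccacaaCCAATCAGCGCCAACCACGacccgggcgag

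Heat shock elements with 2 adjoining units (GAANNTTC or TTCNNGAA) were found in 14 of the 55 members (25.5%) and in 14.5% of all genes. Elements with 3 units (GAA, TTC, GAA or TTC, GAA, TTC, with 2 bases of any kind between units, each also holding 2-unit matches) were found in 3 members, Hspd1, Hspe1 and Dnajb6, and in 0.514% of all genes. Hspd1 and Hspe1 are transcribed away from each other, and their matches are the same bases read from opposite strands. Capitals mark the matched units in the stretches below, which show the shared Hspd1 and Hspe1 element on the Hspe1 strand, the element of Dnajb6, and those of the inducible genes Hsph1 and Hspa1b.
Hspe1, chr1:55088053-55088082, plus strand: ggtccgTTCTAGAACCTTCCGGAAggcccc
Dnajb6, chr5:29735846-29735875, plus strand: ctccgaGAATCTTCCGGAAcgctagaccag
Hsph1, chr5:149636346-149636375, minus strand: gaatctTTCTCGAAggctcgagaagaagga
Hspa1b, chr17:34959325-34959354, minus strand: gcgaaactgctgGAAGATTCctggccccaa
A match is a run of letters, not a measured binding site. The promoters of Hspa1a and Hspa1b were identical at 247 of 250 bases.

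The counts held a large constitutive chaperone pool and little of the classic inducible Hsp70. The 66 members together held 0.964% to 1.06% of scaled counts in wild type and 0.93% to 0.955% under the overexpression label. Hsp90ab1, the constitutive cytosolic Hsp90, was the most abundant per length at 605 ± 17.4 CPM per kilobase of exon in wild type (SD, n = 4), which placed it above 99.9% of protein-coding genes tested. Hspa8, the constitutive Hsc70, followed at 384 ± 26.9 CPM per kilobase and Hsp90aa1, the inducible Hsp90, at 287 ± 19.1. These 3 levels were separated by more than their spread. The inducible Hsp70 genes Hspa1b and Hspa1a stood at 2.51 ± 0.396 and 1.65 ± 0.0632 CPM per kilobase, so that Hspa8 was 155 ± 18.7 times as high as Hspa1b per length. Reads of Hspa1a and Hspa1b may be divided between these near-identical copies, or left out of the count, in a way the sources used here do not give. The levels of both genes may therefore be too low and the ratio too high.

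The DnaJ genes with the highest levels per length were the pair with synaptic vesicle roles. Dnajc6 stood at 73.7 ± 3.47 and Dnajc5 at 72.2 ± 3.76 CPM per kilobase in wild type, a difference smaller than their spread. Dnaja2, a general Hsc70 partner, followed at 58.5 ± 1.33 CPM per kilobase. In the endoplasmic reticulum Hsp90b1 (50.03 ± 4.03) and Hspa5 (46.4 ± 3.11) led, with Dnajc10, a disulphide reductase with a J domain, at 15.3 ± 0.471 and the BiP partner Dnajb11 at 15.1 ± 1.15 CPM per kilobase. The mitochondrial set was led by Hspd1 (58.9 ± 2.86) and Hspa9 (51.2 ± 1.42), with Dnaja3, the matrix DnaJ, at 18.1 ± 0.687 CPM per kilobase. The 7 small Hsp members picked by symbol were low: Hspb8, a partner of Bag3 in clearing aggregates, led them at 5.76 ± 0.918 CPM per kilobase. Small heat shock proteins under other symbols are not covered.

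**Figure D1:**
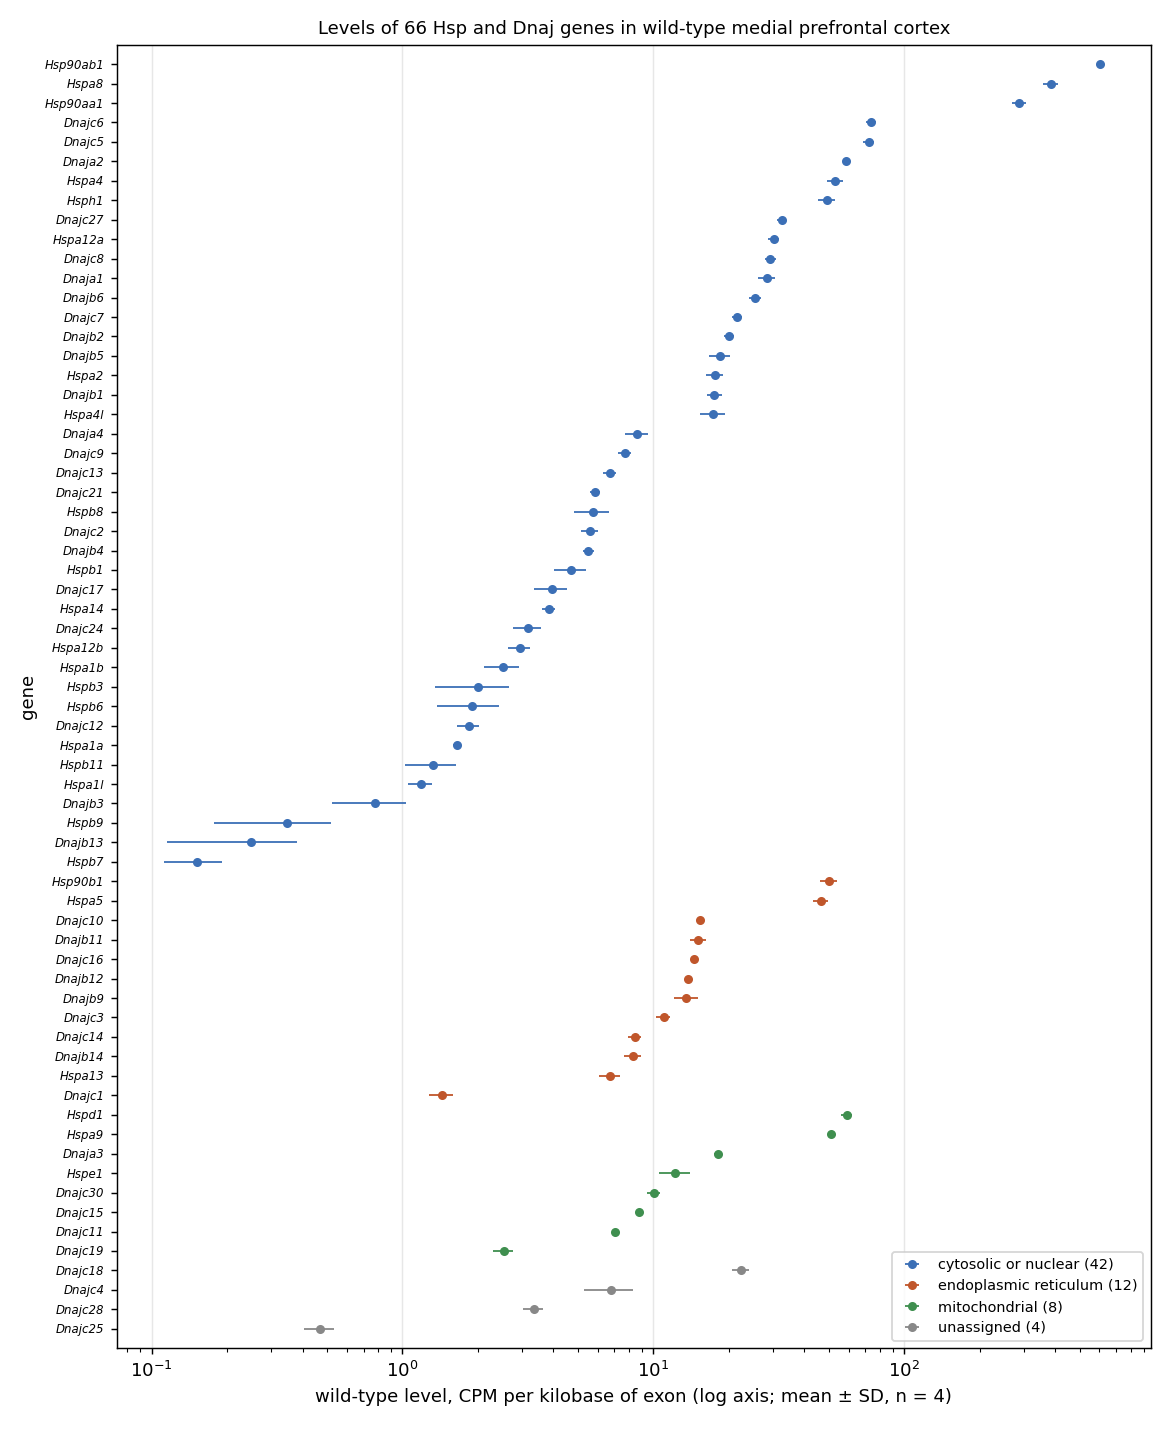
Wild-type level of each of the 66 members in CPM per kilobase of exon on a log axis (points are means and bars SD over 4 libraries), coloured by site. Hsp90ab1, Hspa8 and Hsp90aa1 stand apart at the top, and Hspa1a, Hspa1b and most small Hsp genes lie near or under 5 CPM per kilobase.

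Hspb9 lay just inside the count minimum with 10 or more counts in 4 columns (4, 11, 8 and 10 counts under the overexpression label, then 9, 8, 11 and 22 in wild type). Hspb2 lay just outside with 3 such columns (12, 13, 17 and 8, then 2, 7, 8 and 5). Dnajb7, Dnajb8, Dnajc22, Dnajc5b and Dnajc5g held at most 10 counts in any library. Hspb9 did not pass the low-count filter of the test, which left 65 tested members.

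No member passed the test over all genes: the lowest adjusted p among the 65 was 0.24 (edgeR, 17636 genes tested, of which 0.034% were called). At an unadjusted p under 0.05, 15 members (23.1%) were lower and 2 (3.08%) higher in the libraries labelled overexpression, where 5.43% of all genes tested were lower and 5.24% higher. DESeq2 gave 16 lower (5.78% of all genes) and 2 higher (5.59% of all genes), with 1 member, Hsp90b1, past its adjusted threshold (0.159% of all genes). In limma-voom 15 were lower (5.22% of all genes), 2 higher (5.26% of all genes) and none past the adjusted threshold (0.0113% of all genes). The 15 lower members belonged to all 3 sites: 8 of 41 tested in the cytosol or nucleus, 5 of 12 in the endoplasmic reticulum and 2 of 8 in mitochondria. Without overexpression replicates 2 and 3 these were 5, 3 and 1 (3.44% of all genes). With the GC offset described below the lower members by site numbered 4, 3 and 2 (2.8% of all genes). Each of the 15 stood below its wild-type mean in each of the 4 libraries labelled overexpression, which their choice by p in these same libraries made likely. The differences were small, from 8.04% to 14.4% of the wild-type mean for the 17 members at this threshold. Groups did not overlap for 11 members lower and 1 higher, beside 3.02% and 2.82% of all genes. With only overexpression replicates 1 and 4 on one side, 17 members did not overlap lower and 3 higher, beside 8.75% and 8.94% of all genes. The median log2 fold change was -0.062 over the members, with 45 of 65 below 0, against 0.002 over all genes tested, of which 49.5% were below 0. Without the pair, 46 of 65 were below 0, as were 50.1% of all genes. Among genes of at least 10 CPM, a bound chosen after seeing the data, 15 of 50 members were lower (8.3% of all such genes) and 2 higher (6.8% of all such genes).

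**Figure D2:**
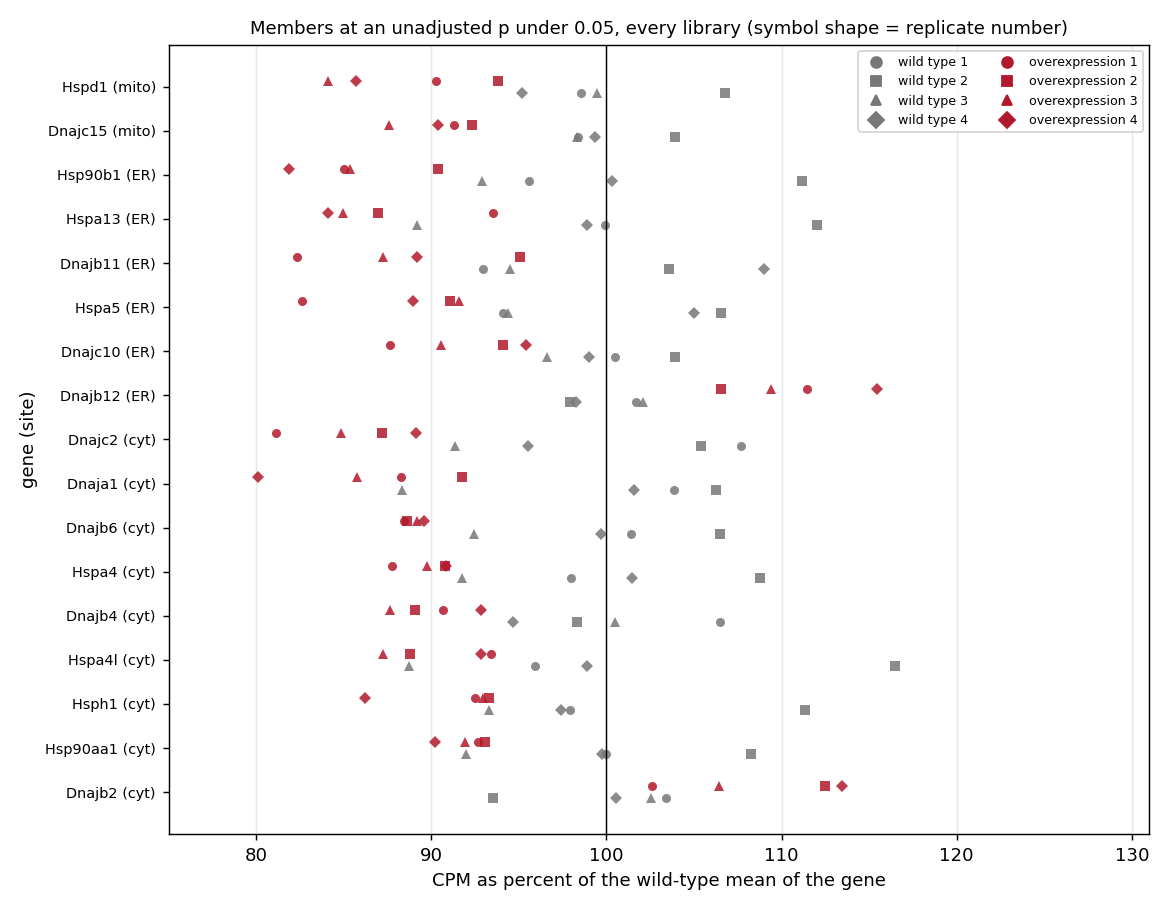
Level of the 17 members at an unadjusted p under 0.05 in every library, as a percentage of the gene's wild-type mean (grey, wild type; red, overexpression; symbol shape, replicate number). Red points lie left of 100 for the 15 lower members and right of it for Dnajb12 and Dnajb2, and wild-type replicate 2 is often the highest point.

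In the endoplasmic reticulum 9 of 12 members had a log2 fold change below 0, beside 49.5% of all genes. The 3 DnaJ genes Dnajb12, Dnajc14 and Dnajc16 had one above 0. Hsp90b1 (chromosome 10, 86690209 to 86705509, GRCm38) stood at 171.5, 182, 172 and 165 CPM in overexpression replicates 1 to 4 and at 193, 224, 187 and 202 CPM in wild-type replicates 1 to 4. All 4 libraries labelled overexpression lay below all wild-type libraries, for a log2 fold change of -0.22 (SE 0.056, edgeR adjusted p = 0.24). Hspa5 (chromosome 2, 34771970 to 34777547) stood at 162, 179, 179.8 and 175 CPM against 185, 209, 185 and 206 CPM, again without overlap (log2 -0.18, SE 0.054, adjusted p = 0.31). Hspa5 encodes BiP, the Hsp70 whose release from stress sensors starts the unfolded protein response. Exons of Hsp90b1 overlap other annotated genes on both strands, so its counts are uncertain.

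Dnajb11, a luminal BiP partner, stood at 40.2, 46.4, 42.6 and 43.6 CPM against 45.4, 50.6, 46.2 and 53.3 CPM (log2 -0.18, SE 0.065, adjusted p = 0.36), with overexpression replicate 2 inside the wild-type range. Hspa13, a microsomal Hsp70 relative, stood at log2 -0.19 (SE 0.068) and Dnajc10 one of -0.12 (SE 0.052). Dnajc3, which carries the stress element shown above and encodes an inhibitor of the kinase PERK, had -0.12 (SE 0.058) with overlapping groups. The 3 genes with the element therefore stood at log2 -0.22, -0.18 and -0.12, and the median of the 51 tested members that have a promoter without it was -0.048. These 3 transcripts had 43.8%, 45.6% and 43.2% GC, and with the GC offset described below they stood at -0.16, -0.13 and -0.053. The median over all tested members was -0.038 with the offset, and that of the 51 without the element is not given here. The part of the element in these values was not tested. Dnajb12, a membrane-anchored DnaJ of protein degradation, stood higher at 51.5, 49.2, 50.5 and 53.3 CPM against 46.96, 45.2, 47.1 and 45.4 CPM, without overlap (log2 0.15, SE 0.056, adjusted p = 0.36). The remaining members of this site ranged from -0.14 (Dnajb9) to 0.083 (Dnajc14), and the median of the 12 was -0.12, or -0.049 with the offset.

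In mitochondria Hspd1 (chromosome 1, 55077835 to 55088243) stood at 140.4, 146, 130.8 and 133 CPM against 153, 166, 155 and 148 CPM, with no overlap (log2 -0.18, SE 0.053, adjusted p = 0.31). Hspe1, which encodes the lid of the same chaperonin and shares the promoter element printed above, stood at 19.3, 21.2, 22.2 and 14.9 CPM against 18.9, 17.0, 15.2 and 21.1 CPM (log2 0.11, SE 0.12, adjusted p = 0.77). The groups overlapped widely for Hspe1. The ratio of Hspd1 to Hspe1 in CPM was 7.28, 6.88, 5.89 and 8.93 under the overexpression label, beside 8.13, 9.79, 10.2 and 7.01 in wild type, so the groups overlapped in this ratio too. Exons of both genes overlap on opposite strands, and both have processed pseudogenes, which makes their counts uncertain. Dnajc15, a DnaJ of the inner-membrane import motor, stood at log2 -0.15 (SE 0.053) without overlap, and Hspa9 one of -0.052 (SE 0.047).

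In the cytosol the most abundant Hsp90 and Hsp70 genes overlapped between groups, while several partners had lower means. Hsp90ab1 stood at 1781, 1801, 1813 and 1734 CPM against 1771, 1890.1, 1807 and 1791 CPM (log2 -0.026, SE 0.042), with overlapping groups. Hsp90aa1 stood at 1047, 1051, 1038 and 1019 CPM against 1129, 1223, 1039 and 1126 CPM (log2 -0.12, SE 0.048, adjusted p = 0.39), overlapping through wild-type replicate 3. Hspa8 stood at 1553, 1507, 1613 and 1525 CPM against 1525, 1805, 1623 and 1656 CPM (log2 -0.093, SE 0.049, adjusted p = 0.51). None of these 3 separated the groups, and each was highest in wild-type replicate 2.

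Among the partners, Dnaja1 (chromosome 4, 40722150 to 40737149), a major DnaJ for Hsc70 and Hsp90 clients, stood at 216, 224, 209 and 196 CPM against 254, 259.5, 216 and 248 CPM (log2 -0.21, SE 0.058, adjusted p = 0.31). Wild-type replicate 3 lay among the libraries labelled overexpression. Dnajb6 (chromosome 5, 29735688 to 29818134), which suppresses aggregation of polyglutamine proteins, stood at 136.6, 136.9, 137.8 and 138.4 CPM against 157, 164, 143 and 154 CPM, without overlap (log2 -0.17, SE 0.051, adjusted p = 0.31). For Dnajb6 the libraries labelled overexpression lay within an SD of 0.817 CPM, against 8.96 CPM in wild type. Hspa4, an Hsp110 that exchanges nucleotide on Hsp70, stood at 258, 267, 264 and 267 CPM against 288, 319.96, 269.8 and 298 CPM (log2 -0.16, SE 0.051, adjusted p = 0.31), also without overlap. The other Hsp110 genes Hsph1 (log2 -0.13, SE 0.053) and Hspa4l (log2 -0.14, SE 0.065) overlapped between groups, and the ribosome-associated Dnajc2 (log2 -0.22, SE 0.075) and Dnajb4 (log2 -0.15, SE 0.058) did not. Dnajb2, a neuronal DnaJ that sorts clients for degradation, was the other higher member at an unadjusted p under 0.05, at 87.5, 95.96, 90.8 and 96.8 CPM against 88.2, 79.8, 87.5 and 85.8 CPM (log2 0.12, SE 0.054, adjusted p = 0.43), with overlap.

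The groups overlapped for the classic heat-inducible genes. Hspa1a stood at 5.87, 5.41, 4.28 and 5.18 CPM against 4.86, 5.08, 4.65 and 4.99 CPM (log2 0.082, SE 0.15), and Hspa1b at 8.02, 6.26, 8.35 and 7.1 CPM against 5.5, 7.94, 7.75 and 6.95 CPM (log2 0.079, SE 0.14). With both copies counted as one gene the log2 fold change was 0.08 (SE 0.10, adjusted p = 0.80). Dnajb1, the inducible Hsp40, stood at log2 0.088 (SE 0.061) and Hspb1, the inducible Hsp27, one of 0.16 (SE 0.16). Of the 11 stress-inducible members 6 were lower at an unadjusted p under 0.05 (Dnaja1, Hspd1, Dnajb4, Hsp90aa1, Hsph1 and Hspa4l; 5.43% of all genes) and the other 5 stood above 0. With the GC offset 2 of the 11 were lower, Dnaja1 and Hspd1 (2.8% of all genes), and without overexpression replicates 2 and 3 it was 3 (3.44% of all genes). Of the 14 members with a heat shock element of 2 units, 7 stood below 0 (49.5% of all genes). Among the 15 were 6 of those 7, and 6 of the 40 tested members whose promoter lacks it. The medians were -0.061 with the element and -0.068 without it, and 5.43% of all genes were lower. Without overexpression replicates 2 and 3, 4 of the 14 were lower (3.44% of all genes). It was 3 of the 14 with the GC offset (2.8% of all genes), and the median of the 14 was then -0.037. Values with the offset for members without the element are not given here. The synaptic vesicle partners Dnajc5 (log2 -0.045, SE 0.047) and Dnajc6 (log2 -0.069, SE 0.047) had means near those of wild type. No small Hsp gene was at the unadjusted threshold among the 6 tested. The widest spread over the 8 libraries belonged to the low-count genes Hspb7 and Dnajb13, the latter at 0.385, 0.702, 0.0661 and 0.85 CPM against 0.824, 0.598, 0.219 and 1.07 CPM (log2 -0.44, SE 0.59).

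**Figure D3:**
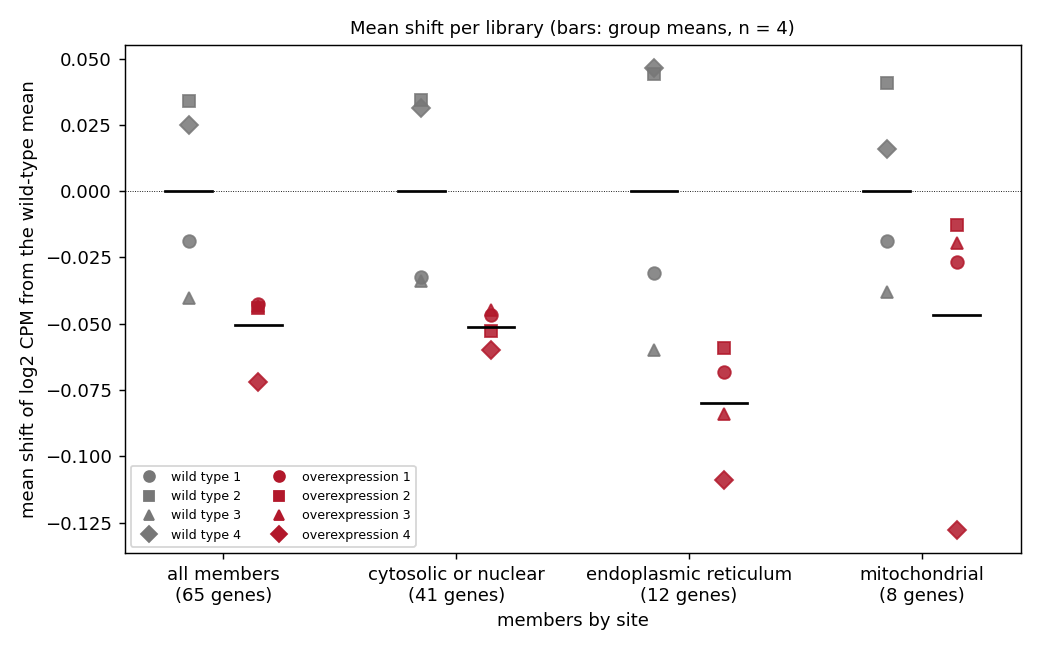
Mean shift of log2 CPM from the wild-type mean of each gene, averaged over all tested members and over those of each site, in every library (grey, wild type; red, overexpression; shape, replicate number; black bars, group means, n = 4). All libraries labelled overexpression lie below 0; in the endoplasmic reticulum they span -0.11 to -0.059, next to wild-type replicate 3 at -0.06.

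Averaged over the 41 cytosolic or nuclear genes, the mean shift from wild type was -0.047, -0.053, -0.045 and -0.06 in overexpression replicates 1 to 4, below the lowest wild-type library at -0.034. Over the 12 endoplasmic reticulum genes the mean shift from wild type was -0.068, -0.059, -0.084 and -0.11 in overexpression replicates 1 to 4, and -0.031, 0.044, -0.06 and 0.047 in wild type. Wild-type replicate 3 reached the range of the libraries labelled overexpression, so the groups overlapped. For the mitochondrial genes replicate 4 of the group labelled overexpression stood lowest at -0.13, and the other 3 lay between -0.027 and -0.013, inside the wild-type range.

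These values are set here beside 1 wild-type library, the share of mitochondrially encoded counts and the GC content of transcripts. For 27 of the 66 members, 12 of the 15 lower ones among them, the maximum lay in wild-type replicate 2, as it did for 18.5% of all genes tested. Mitochondrially encoded genes took 4.52%, 4.16%, 3.80% and 3.72% of counts in overexpression replicates 1 to 4 and 4.72%, 5.42%, 4.78% and 4.07% in wild type, highest in the same library; the groups overlapped, and the part of this share in the results was not tested. Without that library 10 of 66 members were lower (3.67% of all genes) and 2 higher (3.73% of all genes). Without overexpression replicates 2 and 3, whose Ino80e was not raised, 9 of 65 were lower (3.44% of all genes) and 1 higher (3.64% of all genes). In both fits all 15 lower members stayed below 0. They were picked in these same libraries, so a kept sign was likely in advance. No member passed over all genes in either fit (called: 0.00554% of all genes without wild-type replicate 2, 0.0054% without the overexpression pair).

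The sign of the difference followed the GC content of the transcript. Below 45% GC, 16 of 16 members had a log2 fold change below 0; from 45% to 52% it was 24 of 30, and from 52% it was 5 of 19 (bounds chosen after seeing the data). Without overexpression replicates 2 and 3 these were 15, 25 and 6. All genes of at least 10 CPM went the same way in the main fit. Their upper quartile was below 0 in each bin centred on 35% to 47% GC. Their lower quartile was above 0 in each bin centred on 55% to 65% GC. Shares of all genes below 0 within these bands are not given here, so the member counts cannot be read against them. Spearman's rho between fold change and GC was 0.71 over the 50 tested members that reached 10 CPM, and over all 9594 genes at that level it was 0.70, a description across genes that share their libraries. With each library's GC trend taken out as an offset, 9 members were lower (2.8% of all genes) and 0 higher (2.04% of all genes), and the median was -0.038 over members, against -0.013 over all genes. Of those 9, 8 were among the 15, and the ninth was Dnajc11, which links mitochondrial membranes (log2 -0.12, SE 0.050 with the offset). Dnajb6 and Dnajb11, at 50.9% and 50.5% GC, had log2 fold changes of -0.19 (SE 0.054) and -0.19 (SE 0.062) with the offset, no smaller than without it. Hsp90b1 had -0.16 (SE 0.055), Hspd1 -0.14 (SE 0.054) and Hspa5 -0.13 (SE 0.054), while Dnajb4 (39.04% GC) came to -0.045 (SE 0.058) and Hspa4l (39.5% GC) to -0.038 (SE 0.056). Both higher members, Dnajb12 (54.3% GC) and Dnajb2 (57.3% GC), came to 0.078 (SE 0.055) and 0.022 (SE 0.052). No member passed over all genes with the offset, where 0.0284% of all genes did.

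**Figure D4:**
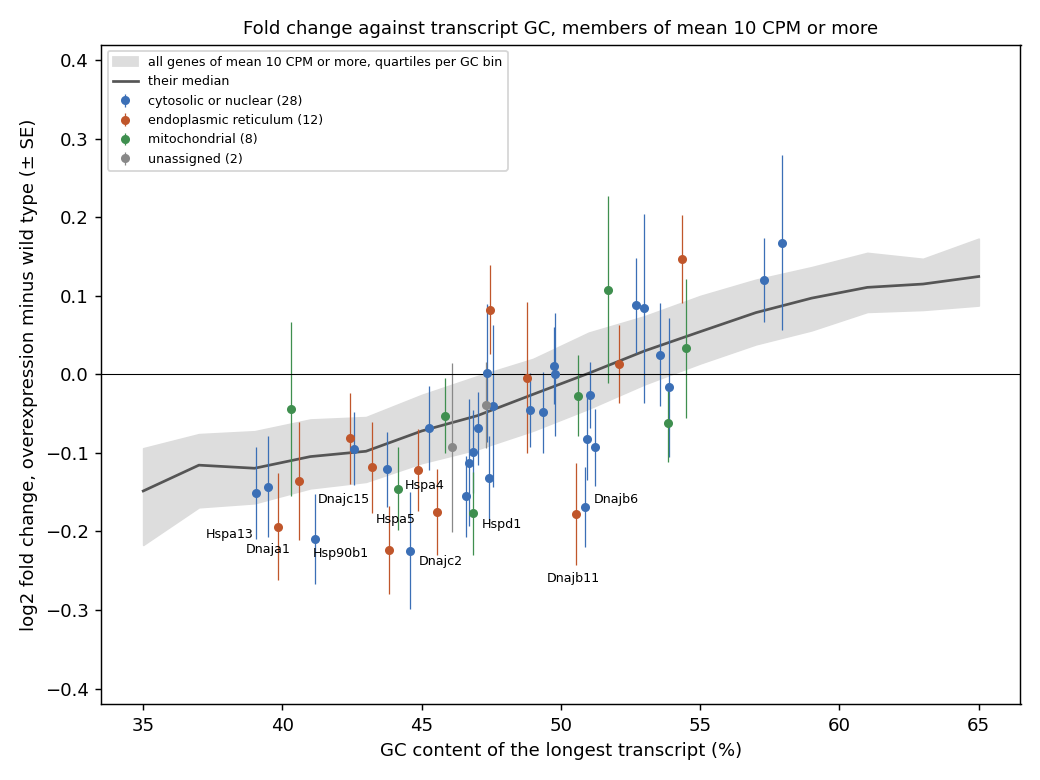
Log2 fold change (overexpression minus wild type, bars SE) against the GC content of the longest transcript for the 50 tested members of at least 10 CPM, over the median and quartiles of all genes at that level (grey). Members rise with GC as the grey band does, and lie inside, below and above it. Hsp90b1, Dnaja1, Hspd1, Hspa5 and Dnajc2 are among those below it, as are Dnajb6 and Dnajb11 near 50.9% and 50.5% GC. Dnajb12 and Hspe1 are among those above it.

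The other genes of the chaperone network were read from lists, none of whose members passed over all genes. Their counts at an unadjusted p under 0.05 stand beside 5.43% of all genes lower and 5.24% higher. Some counts lay near those shares and others above or below them, and no list was tested as a set. With the GC offset the shares over all genes were 2.8% and 2.04%, and without overexpression replicates 2 and 3 they were 3.44% and 3.64%. All 8 subunits of the cytosolic chaperonin TRiC, which folds actin and tubulin, had a log2 fold change below 0 (median -0.077), beside 49.5% of all genes. With the offset 7 of 8 did (median -0.079), beside 55% of all genes. Cct8 (log2 -0.16, SE 0.051), Tcp1 (log2 -0.14, SE 0.048) and Cct6a (log2 -0.13, SE 0.052) were lower at that threshold. With the offset 1 of them was, Tcp1 (log2 -0.11), and without the overexpression pair 3 subunits were (Cct8, Tcp1 and Cct4).

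Of 24 genes of the unfolded protein response and endoplasmic reticulum folding, 3 were lower, the disulphide isomerase Pdia3 (log2 -0.20, SE 0.054) and the lectin chaperones Canx (log2 -0.13, SE 0.051) and Calr (log2 -0.12, SE 0.050), and 1 was higher, Atf6b (log2 0.14, SE 0.057). Pdia3 stood at 158, 166, 153 and 153 CPM against 172, 199, 178 and 176 CPM, without overlap. With the offset 4 genes of this list were lower and 0 higher: Pdia3 (-0.17), Calr (-0.13) and the transcription factors Xbp1 (-0.12) and Atf4 (-0.12), while Canx came to -0.059 and Atf6b to 0.021. Without the overexpression pair 3 were lower (Pdia3, Calr and Pdia6) and 1 higher (Ddit3). Of 16 genes for exchange factors and adaptors of Hsp70, 2 were lower, the Hsp70-Hsp90 adaptor Stip1 (log2 -0.17, SE 0.051) and St13 (log2 -0.12, SE 0.049). With the offset 2 were lower, Stip1 (-0.20) and the exchange factor Bag1 (-0.16), while St13 came to -0.058, and without the overexpression pair all 3 of these were lower.

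The 17 Hsp90 cochaperones gave 2 lower (Chordc1, log2 -0.22, SE 0.072, and Sugt1, log2 -0.13, SE 0.054) and 2 higher (Fkbp8, log2 0.15, SE 0.051, and Fkbp5, log2 0.18, SE 0.075). With the offset none of the 17 was at the threshold (Chordc1 -0.063, Sugt1 -0.045, Fkbp8 0.029, Fkbp5 0.15), and without the overexpression pair 1 was lower (Chordc1) and 1 higher (Fkbp8). Among 13 genes of mitochondrial folding and proteolysis 1 was lower (Yme1l1, log2 -0.17, SE 0.051) and 2 were higher (Timm44, log2 0.20, SE 0.083, and Htra2, log2 0.24, SE 0.10). With the offset 0 were lower and 1 higher (Yme1l1 -0.049, Timm44 0.17, Htra2 0.15), and without the overexpression pair 1 was lower (Yme1l1) and 1 higher (Htra2). Hsf1, the main heat shock transcription factor, stood at 21.9, 25.96, 25.8 and 25.07 CPM against 23.7, 20.5, 23.4 and 24.3 CPM (log2 0.10, SE 0.080). Of the 4 Hsf genes Hsf2 was at the threshold (log2 -0.20, SE 0.088), at -0.12 with the offset, where none of the 4 was; without the overexpression pair Hsf2 was again lower.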

How the data were processed

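The deposited table holds raw read counts per Ensembl gene, 1 column per library. The submitters' processing notes name Trimmomatic 0.39, STAR 2.7.10, featureCounts 2.0.3 and the builds mm10 and GRCm38; libraries were strand-specific, per the labels' protocols. The sources used here do not say which strand option, annotation or rule for multi-mapping reads the counting used. Groups and replicate numbers came from the sample titles. Symbols, coordinates, exon lengths (union of exons) and GC (longest transcript) came from GENCODE M21, on GRCm38.

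Counts were filtered (filterByExpr), scaled by TMM and tested in edgeR 4.0.16 (R 4.3.3) by its quasi-likelihood F test with robust dispersion, overexpression against wild type, with Benjamini-Hochberg adjustment over all genes and a threshold of 0.05. CPM are relative to the TMM-scaled library size. Members and lists were chosen with earlier results of these data known. The text names members at an unadjusted p under 0.05, the highest per length by site and family, the stress-inducible list, the most variable members, and up to 3 genes with the lowest p of each other list; Dnajb9, Dnajc3, Dnajc5, Dnajc11, Dnajc14, Dnajc16, Atf6b, Fkbp5, Cct4, Xbp1, Atf4, Pdia6, Ddit3, Bag1 and the cell type markers were named beyond this rule, after their values were seen. Alternatives were other scalings and filters, DESeq2 1.42.0, limma-voom (limma 3.58.1), no robust estimation, a replicate block, a GC offset (spline of 5 degrees of freedom), and leaving out libraries.

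Same-numbered libraries of the 2 groups are not paired by the labels. The smallest chi-square per degree of freedom between libraries was 9.07, so none was a copy. The test was tested on simulated counts (17344 genes, this comparison, 50 genes per fold size): it found 46% of genes changed 1.25-fold, 68% at 1.5-fold and 90.0% at 2-fold.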

Additional observations from a re-analysis of the deposited data

Results flagged for a closer look

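In 9 of 132 groups of 4 libraries (66 members in each group), 1 library stood apart from the other 3 by more than Dixon's 95% limit; chance flags about 1 in 20 groups. Among abundant members these were Dnajc18 in wild-type replicate 2 (135.9 CPM, others 117 to 118 CPM), Hspa9 in overexpression replicate 3 (223.6 CPM, others 208 to 209.7 CPM) and Hsph1 in overexpression replicate 4 (307.3 CPM, others 329.6 to 333 CPM). Among low ones they were Dnajc30 in overexpression replicate 1 (19.33 CPM, others 16.1 to 16.5 CPM), Dnajc4 in overexpression replicate 2 (7.601 CPM, others 9.73 to 10.1 CPM), Hspb11 in overexpression replicate 2 (3.491 CPM, others 2.06 to 2.25 CPM) and Dnajc25 in overexpression replicate 4 (2.096 CPM, others 2.44 to 2.48 CPM). Hspb7 in wild-type replicate 3 (0.5836 CPM) and Hspb9 in wild-type replicate 4 (0.4357 CPM) rested on 32 and 22 counts.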

How the results depend on the processing

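Of 37 tested members (31 named by the rule and 6 beyond it), 31 kept their direction in every alternative run; their adjusted p reached 0.05 only with no low-count filter, for Hsp90b1 (log2 -0.22, adjusted p = 0.024) and Dnaja1 (log2 -0.21, adjusted p = 0.041), and in DESeq2 for Hsp90b1 (log2 -0.22, adjusted p = 0.044), so that 2 members and 1 member were called. Over the alternatives the adjusted p of Hsp90b1 ran from 0.024 to 0.9999. The alternatives reuse the same libraries, so for members picked by their p a kept direction was likely in advance. Members lower at an unadjusted p under 0.05 numbered 15 (5.43% of all genes), and 9 with the GC offset (2.8% of all genes). They numbered 9 without overexpression replicates 2 and 3 (3.44% of all genes), 9 with the replicate block and GC offset, and 10 to 19 without 1 library. Members higher numbered 2 (5.24% of all genes), 0 with the offset (2.04% of all genes) and 1 without the pair (3.64% of all genes). They numbered 0 with the block and offset and 1 to 3 without 1 library (1 without overexpression replicate 2 or 4). The replicate block alone gave 15 and 2. Shares over all genes are not given here for the block fits or most fits without 1 library, so those counts cannot be read against them. Deviations of same-numbered libraries correlated by -0.043, -0.026, 0.074 and 0.049. Genes called over the whole table numbered 6, and 83 with no low-count filter, 28 in DESeq2, 2 in limma-voom, 2 without robust estimation, 1 with the replicate block, 2 with the replicate block and GC offset, 1 without overexpression replicates 2 and 3, and 1 to 8 without 1 library. The members that reversed were Hspa1a (-0.029 with the GC offset, -0.036 with the block and offset), Hspa1b (-0.029 and -0.022 likewise, and -0.021 to 0.15 without 1 library, lowest without wild-type replicate 1), Hspb7 (-0.033 with the block and offset, -0.30 to 0.63 without 1 library, lowest without overexpression replicate 3), Hspb8 (-0.015 to 0.19 without 1 library, lowest without overexpression replicate 2, and -0.029 without 2 and 3) Hspe1 (-0.074 without 2 and 3) and Dnajc16 (-0.024 and -0.025 with the offset alone and with the block, -0.0027 to 0.029 without 1 library, below 0 without overexpression replicate 2 or wild-type replicate 1); the cause was not tested. A count minimum in all 8 columns left 63 members. Standard errors of members of at least 10 CPM ran from 0.042 to 0.12, which bounds the differences that could be detected.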
